A study of Homo sapiens with 8 samples.

Results

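The genes for mitochondrial ribosomal proteins, whose symbols begin with MRPL or MRPS, were examined in a PRO-seq experiment on acute hypoxia. A gene was taken where its symbol was MRPL or MRPS followed by digits, with A, B or C allowed after them. Its gene body also had to exceed 0.5 CPM, its reads scaled to the total of the library, in at least 2 libraries. Of 23193 genes in the deposited tables, 72 had such a symbol and 71 passed in the gene body, against 16686 genes of any name. Of these 71, 70 also passed at the transcription start site (TSS), where 15212 genes were tested. MRPS24 was left out because its gene body had 0 reads in every library, and its 1989 bp lie wholly within the read-through gene URGCP-MRPS24 on the same strand. MRPS6 had 0 reads at the TSS, where its region coincides with that of SLC5A3 on the same strand, and 31739 of the 68512 bp of its gene body overlap that gene. Whether the overlap set these zeros was not tested. MRPS34, MRPL34, MRPL36, MRPL41, MRPL51 and MRPL53 were not among the 72 genes and were not analysed here, so the list need not be the whole family. Per the study's methods short transcripts were removed before counting, and whether that left these genes out was not tested.

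PRO-seq labels the nascent RNA of engaged RNA polymerases, so that a read marks a polymerase caught in transcription rather than a stored mRNA. HCT116 is a colorectal carcinoma cell line, and the cells were wild-type (WT) or HIF1A-/-, a line whose HIF1A gene was disrupted through AAV-mediated homologous recombination. Each genotype was kept in normoxia or exposed to 1% O2 for 90 min, with DMSO as vehicle in every group and 2 libraries in each of the 4 groups. The comparisons were hypoxia against normoxia within each genotype, the difference of these responses between WT and HIF1A-/- cells (the interaction), and the contrast of HIF1A-/- with WT cells in normoxia and in hypoxia. Per the study's methods the 2 libraries of a group were independent biological replicates, and the HIF1A-/- groups represent a single engineered line.

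The mitochondrial ribosome translates the few proteins encoded by mitochondrial DNA, all of which are core subunits of the respiratory chain and ATP synthase. Its RNA comes from mitochondrial DNA, but all of its proteins are encoded in the nucleus, made in the cytosol and imported. Some of these proteins descend from bacterial ribosomal proteins, and others were gained by the mitochondrial ribosome and have no bacterial counterpart. Of the 71 genes, 29 encode large subunit proteins with a bacterial homologue, 17 encode large subunit proteins specific to mitochondria, 16 encode small subunit proteins with a bacterial homologue and 8 encode small subunit proteins specific to mitochondria. Despite their names, MRPS18A and MRPS30 encode large subunit proteins and are counted there. MRPS36 encodes a protein now known as a component of the alpha-ketoglutarate dehydrogenase complex and was kept apart.

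Some of these genes had a neighbour on the opposite strand that starts close by and runs the other way. Such a divergent neighbour lay within 1000 bp for 25 of 71 MRP genes (35.2%), against 14.5% of all 16686 genes tested. It lay within 300 bp for 19 of them (26.8%), against 10.8% of all genes. The DNA between the starts of 3 such pairs is printed here because each stretch lies before both an MRP gene and its neighbour. MRPL46 and MRPS11, from the large and the small subunit, share a stretch of 49 bases. SARS2 encodes the mitochondrial seryl-tRNA synthetase and NDUFB5 a subunit of respiratory complex I. The sequences are from GRCh37, the build of the deposited files, between the starts given there, 5′ to 3′ on the strand of the first gene named. Capitals mark the letters CCGGAAG of the ETS motif or AAGATGGC of the YY1 motif, on either strand. The NRF1 motif was searched in the same way and has no match in the stretches printed.
MRPL46 to MRPS11, chr15:89010634-89010682, minus strand: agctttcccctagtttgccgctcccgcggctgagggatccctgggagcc
MRPS12 to SARS2, chr19:39421537-39421592, plus strand: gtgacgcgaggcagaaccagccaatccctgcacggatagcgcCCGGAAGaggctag
MRPL47 to NDUFB5, chr3:179322435-179322573, minus strand: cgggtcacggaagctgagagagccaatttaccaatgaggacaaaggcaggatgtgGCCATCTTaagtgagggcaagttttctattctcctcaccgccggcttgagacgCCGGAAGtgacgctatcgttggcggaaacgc

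The 100 bases before the start are shown for 5 further genes because their differences between HIF1A-/- and WT cells or between oxygen levels are described in detail. The capitals are as above, and MRPL52 holds the YY1 letters in 2 places.
MRPL52, chr14:23298991-23299090, plus strand: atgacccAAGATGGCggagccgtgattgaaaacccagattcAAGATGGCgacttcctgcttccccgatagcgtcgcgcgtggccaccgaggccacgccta
MRPS31, chr13:41345348-41345447, minus strand: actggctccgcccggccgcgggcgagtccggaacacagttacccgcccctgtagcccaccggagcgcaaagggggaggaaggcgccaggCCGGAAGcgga
MRPL44, chr2:224822020-224822119, plus strand: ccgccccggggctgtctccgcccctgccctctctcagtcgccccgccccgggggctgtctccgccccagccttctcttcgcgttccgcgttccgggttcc
MRPL58, chr17:73008658-73008757, plus strand: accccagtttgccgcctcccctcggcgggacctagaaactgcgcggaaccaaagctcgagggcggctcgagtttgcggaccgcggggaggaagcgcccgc
MRPL2, chr6:43027284-43027383, minus strand: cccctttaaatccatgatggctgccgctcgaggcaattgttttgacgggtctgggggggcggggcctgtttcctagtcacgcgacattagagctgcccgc

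The same letters were counted from 250 bases before to 50 bases after every start. The ETS letters CCGGAAG were found at 27 of 70 MRP genes (38.6%), against 15.3% of all 15212 genes tested at the TSS. The YY1 letters AAGATGGC were found at 13 of 70 (18.6%), against 3.71% of all genes. MRPL20, MRPL47, MRPL52, MRPS12 and MRPS18A held both. The NRF1 motif, often linked to genes for mitochondrial proteins, was found at 6 of 70 (8.57%), against 9.42%. The core letters ACGTG of the hypoxia response element, to which HIF binds, were found at 23 of 70 (32.9%), against 24.8%. They lie within the E-box CACGTG wherever that occurs, which was at 6 of 70 MRP genes and 9.14% of all genes. The window was less rich in G and C at MRP genes (median 57.8%) than at all genes tested (median 63.7%). These are matches of letters and were not tested as binding sites.

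The libraries held 18125234 to 23622392 reads in gene bodies and 2783581 to 5966348 at TSS regions, and the lowest TSS totals were those of both replicate 1 libraries of HIF1A-/- cells. Reads in HIF1A ran from 130 to 175 CPM over the 8 libraries, with no gap between genotypes, so that nascent reads over the gene do not check the disruption. The known HIF target PDK1 had a log2 fold change in hypoxia of 2.70 in WT cells (edgeR, quasi-likelihood test, adjusted p = 0.00389 by Benjamini-Hochberg over all genes) and of 0.30 in HIF1A-/- cells (adjusted p = 1).

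In WT normoxia the MRP genes had a median gene body level of 3.34 RPKM (CPM per kilobase of gene body), against 1.31 for all genes tested and 25.7 for 69 cytosolic ribosomal protein genes. They ran from 1.05 to 26.1 RPKM. The highest was MRPL57, a short gene for a large subunit protein specific to mitochondria, at 27.6 and 24.6 RPKM in the replicates. MRPL12, which encodes the protein of the flexible stalk that receives translation factors, followed at 13.5 and 12.8 RPKM, so that MRPL57 stood above every other MRP gene beyond the spread of replicates. MRPL17, a large subunit protein near the exit of the peptide tunnel, had 12.2 and 10.6 RPKM, MRPL38, of the large subunit and specific to mitochondria, had 11.3 and 9.32, and MRPS12, part of the decoding centre, had 10.5 and 9.42. Going down the order, the replicates of 66 of 70 neighbouring genes overlapped and those of 4 did not.

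The lowest levels were those of MRPS31, at 1.07 and 1.02 RPKM, and MRPS9, at 1.09 and 1.053, both for small subunit proteins, which did not differ from each other beyond the replicates. MRPL48, at 1.29 and 1.21 RPKM, and MRPL39, at 1.46 and 1.06, were also low, with overlapping ranges. MRPS6 had 1.30 and 1.06 RPKM over its whole gene body but 2.42 and 1.97 over the 36773 bp that SLC5A3 does not overlap, so that its place in the order depends on whether overlapped bases were counted. Gene bodies of MRP genes were short, with a median of 7679 bp (25082 bp for all genes tested) and a range from 1067 bp in MRPS12 to 110412 bp in MRPS28.

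**Figure D1:**
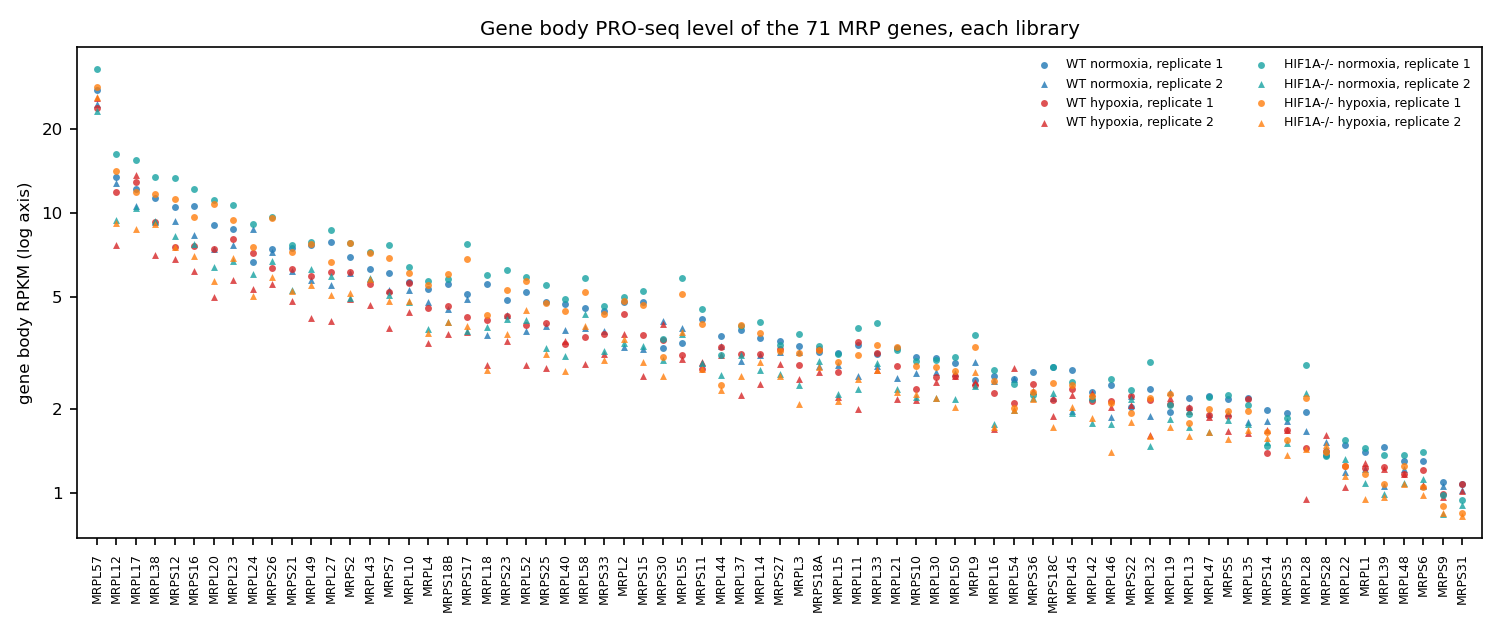
Gene body level in RPKM (log axis) of each of the 71 MRP genes in each of the 8 libraries, ordered by the mean in WT normoxia; colours give the group and shapes the replicate. MRPL57 stands apart at the left, most genes lie between 1 and 10 RPKM, and in most columns the circles of replicate 1 lie above the triangles of replicate 2.

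The density of reads per base at the TSS region over that in the gene body, a measure of polymerase held near the start, had a median over MRP genes of 12.4 and 13.0 in the WT normoxia replicates, against 10.5 and 9.76 over all genes. It was highest in MRPS28, a small subunit gene at 64.3 and 42.6, in MRPL32, whose protein matures by proteolytic cleavage after import, at 33.3 and 54.5, and in MRPL40, at 34.2 and 46.3. It was lowest in MRPL57, at 0.303 and 0.338, in MRPL23, at 1.29 and 0.926, and in MRPS2, at 2.23 and 2.49. MRPL57 was the gene with the most gene body reads per base and the only one of these 3 with fewer reads per base at the start than downstream in both replicates of WT normoxia.

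As a group, MRP genes took 0.262 to 0.330% of all gene body reads in each library. WT cells gave 0.322 and 0.294% in normoxia with 0.293 and 0.267% in hypoxia. HIF1A-/- cells gave 0.330 and 0.270% in normoxia with 0.309 and 0.262% in hypoxia. In every group replicate 2 lay below replicate 1, and that gap exceeded the step from normoxia to hypoxia in HIF1A-/- cells. The median log2 difference of replicate 2 from replicate 1 over the 71 genes was -0.18 (normoxia) and -0.19 (hypoxia) for WT cells and -0.47 and -0.39 for HIF1A-/- cells, while that over all genes lay between -0.0039 and 0.019. MRP genes were lower in replicate 2 in 64, 58, 69 and 70 of 71 cases, respectively. The share of TSS reads was steadier, from 0.850 to 0.923%.

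**Figure D2:**
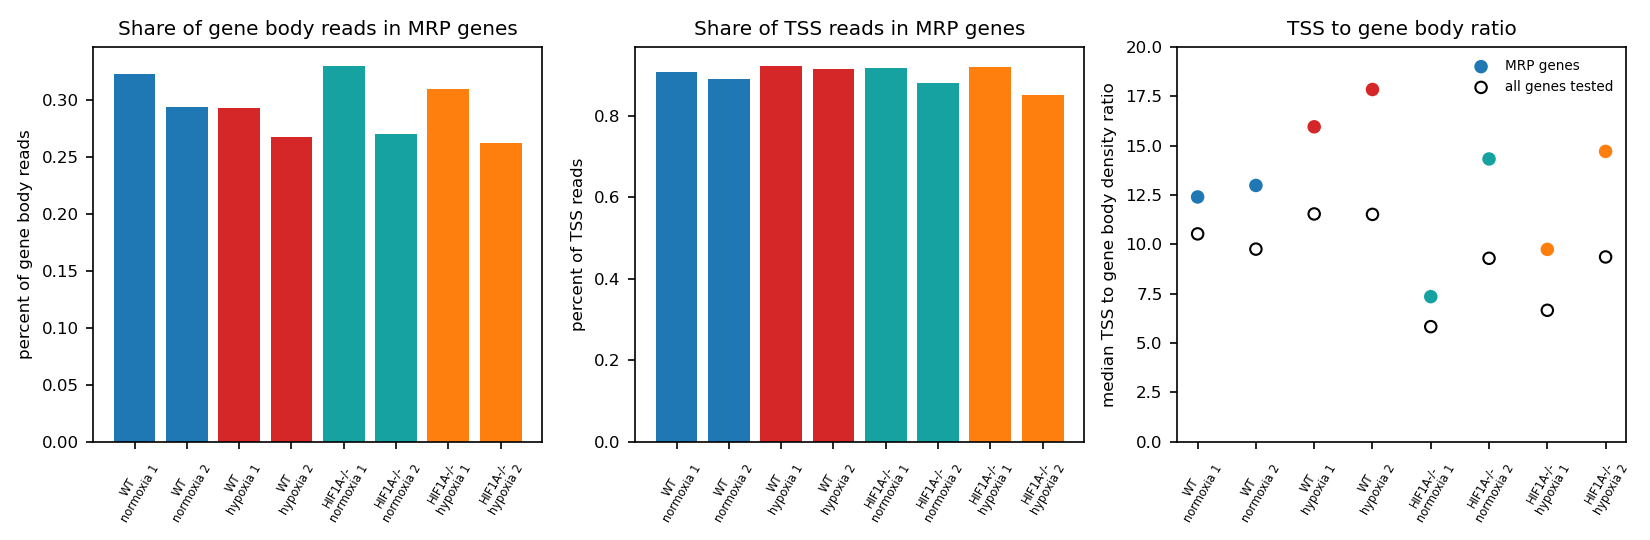
Share of gene body reads (left) and of TSS reads (middle) that fell in MRP genes, in percent, and median TSS to gene body density ratio (right) of MRP genes (filled) and of all genes tested (open), for each of the 8 libraries coloured by group. The gene body share lies between 0.262 and 0.330% and is lower in replicate 2 of each group, and the ratio is lowest in the replicate 1 libraries of HIF1A-/- cells.

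Whether 90 min of hypoxia alters nascent transcription of MRP genes in WT cells was asked first. Gene bodies were lower in hypoxia for 66 of 71 MRP genes, with a median log2 fold change of -0.24. No MRP gene passed the main test, a fit without the replicate number as a block. Over all 16686 genes the median was -0.02 and 8762 were lower. At an FDR of 10% over all genes, edgeR called 0 MRP genes in either direction, and 0 had an unadjusted p under 0.05, while DESeq2 also called 0. Among all genes tested 0.431% were called higher and 0% lower, so that edgeR called no gene of any kind lower here. The groups did not overlap, with both hypoxic libraries below both normoxic ones, for 31 of 71 MRP genes, against 19.4% of all genes, and the reverse held for 1 MRP gene, against 18.3%. Within the pairs of equal replicate number the median was -0.20 and -0.23, and 50 of 71 MRP genes were lower in both pairs, against 37.9% of all genes. With the replicate number as a block, edgeR gave 23 of 71 MRP genes lower and 0 higher at an unadjusted p under 0.05. The share over all genes was not set beside that count. At the FDR of 10% this fit called 1 MRP gene lower and 0 higher, against 1.77% and 3.73% of all genes. It was MRPL18, of the large subunit, at 38.7 and 25.4 CPM in normoxia and 28.8 and 19.8 in hypoxia, where the groups overlapped but each pair was lower (adjusted p = 0.0966 with the block and 0.897 without it). Without replicate 1 of WT normoxia the median was -0.11 with 56 genes lower, and without replicate 2 of WT hypoxia it was -0.11 with 59 lower.

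MRPS10, a small subunit protein of the head domain, had the smallest p among the MRP genes, with 30.8 and 27.1 CPM in normoxia and 23.7 and 21.6 in hypoxia. Its hypoxic libraries lay below its normoxic ones, with a log2 fold change of -0.35 ± 0.20 (SE) and, by edgeR, an adjusted p of 0.897. MRPL58 encodes a peptidyl-tRNA hydrolase built into the large subunit that can free stalled ribosomes. It had 34.8 and 29.5 CPM in normoxia and 27.5 and 21.9 in hypoxia, again without overlap (log2 fold change -0.38 ± 0.22, adjusted p = 0.897). MRPL28, of the large subunit, had the most negative value of the list, -0.60 ± 0.35 (adjusted p = 0.897), on few reads, with 86 and 66 counts in normoxia and 60 and 50 in hypoxia. The interval of that fold change, at 95% confidence, ran from -1.41 to 0.22 and so held no change as well as a clear loss.

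MRPL17 was the main exception, at 24.7 and 21.4 CPM in normoxia and 26.2 and 27.6 in hypoxia. Its hypoxic libraries were the higher ones, with a log2 fold change of 0.22 ± 0.24 (adjusted p = 0.897). The other 4 genes with a value above 0 were MRPL19, MRPS22, MRPS28 and MRPS30, all at 0.07 or below. MRPS28, the longest of the MRP genes, had 151 and 168 CPM in normoxia and 156 and 177 in hypoxia, with overlapping groups. MRPS30 had 18.4 and 23.0 CPM in normoxia and 19.7 and 22.5 in hypoxia, also overlapping.

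Genes picked for their role rather than their values fell in the same range. MRPL12 had 42.7 and 40.5 CPM in normoxia and 37.6 and 24.4 in hypoxia, the second hypoxic library being far below the rest (log2 fold change -0.43 ± 0.32). MRPL10, which anchors the stalk proteins, had 41.2 and 38.6 CPM in normoxia and 41.1 and 32.2 in hypoxia, overlapping. MRPL3, a large subunit protein near the peptidyl transferase centre, had 133 and 127 CPM in normoxia and 114 and 101 in hypoxia, without overlap. MRPS12 had 11.3 and 10.0 CPM in normoxia and 8.09 and 7.30 in hypoxia, also without overlap (log2 fold change -0.47 ± 0.30, adjusted p = 0.897). The MRPS18 paralogues, which derive from one bacterial protein and occupy different places in the ribosome, had different values. MRPS18C had 13.5 and 10.4 CPM in normoxia and 10.3 and 9.005 in hypoxia, without overlap, whereas MRPS18A had 49.7 and 44.5 against 50.9 and 42.3. MRPS18B had 42.9 and 34.9 CPM in normoxia and 35.9 and 28.4 in hypoxia. MRPS36, the gene outside the ribosome, had 31.0 and 26.3 CPM in normoxia and 27.9 and 26.4 in hypoxia, all overlapping.

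By subunit, the gene body change in WT cells had a median of -0.18 over 46 large subunit genes, 43 of them lower, and of -0.29 over 24 small subunit genes, 22 of them lower. By origin it was -0.25 over 45 genes with a bacterial homologue and -0.12 over 25 genes specific to mitochondria. Along the gene list the change varied with gene body length (Spearman's rho 0.44 over 71 genes, 0.14 over all genes tested), a description across genes that share libraries. It also varied with the gene body level, the mean RPKM over the libraries (rho -0.48 over MRP genes, -0.34 over all genes tested). Length and level were not separated. The median was -0.30 over 41 MRP genes with a gene body under 10 kb and -0.12 over the 30 longer ones, against -0.06 and -0.01 over all short and long genes.

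**Figure D3:**
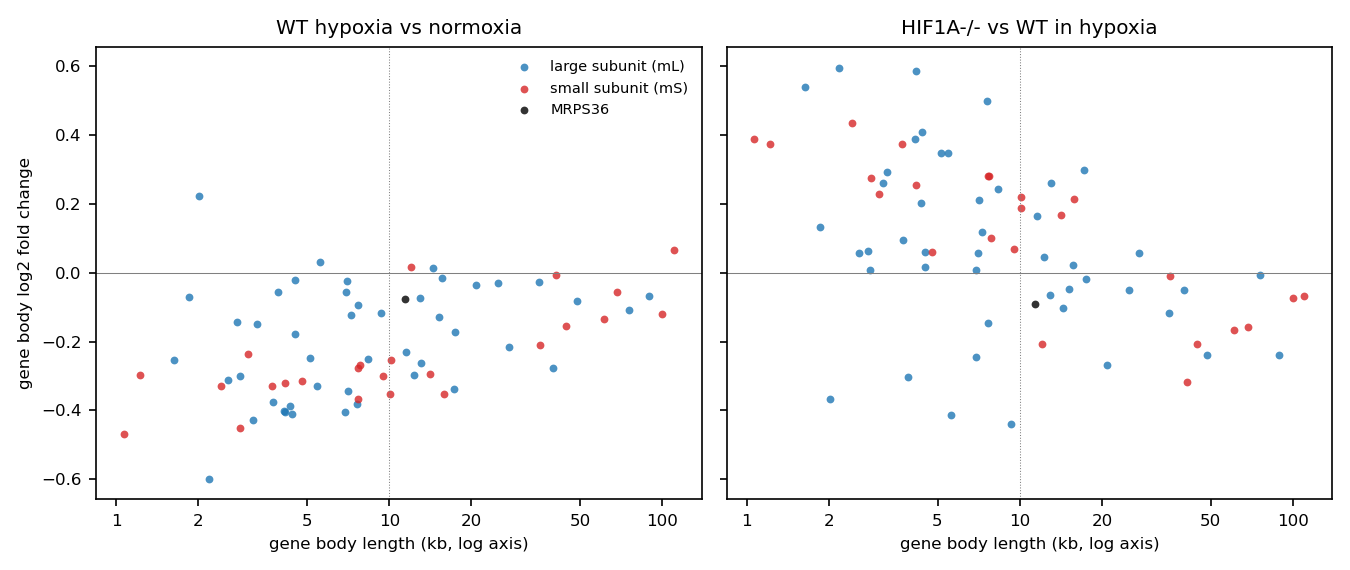
Gene body log2 fold change of each MRP gene against gene body length in kb (log axis), for WT hypoxia against normoxia (left) and HIF1A-/- against WT cells in hypoxia (right), coloured by subunit, with the split at 10 kb dotted. Short genes reach the most negative values on the left, at -0.60 for MRPL28, and the most positive ones on the right, at 0.60 for the same gene. Both panels use the WT hypoxia libraries, with opposite sign.

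In HIF1A-/- cells the gene body change with hypoxia had a median of -0.10 on the log2 scale with 62 of 71 MRP genes lower, against a median of 0.00 over all genes. EdgeR called 0 MRP genes with 0 at an unadjusted p under 0.05, DESeq2 called 0, and 0% of all genes tested were called in either direction. The groups did not overlap for 6 MRP genes that were lower and 1 that was higher, against 11.3 and 12.1% of all genes. In both pairs 47 were lower, against 34.4% of all genes. The block led to 0 calls, against 0.0300% of all genes called higher and 0.00599% lower. The median was -0.16 in the pair of replicate 1 and -0.07 in the pair of replicate 2. It turned to 0.12 without replicate 1 of HIF1A-/- normoxia and to 0.05 without replicate 2 of HIF1A-/- hypoxia. It was -0.32 without replicate 2 of normoxia and -0.30 without replicate 1 of hypoxia. Leaving out a library breaks a replicate pair, and replicate 2 differed from replicate 1 by medians of -0.47 and -0.39 in these groups. The turn of sign cannot be told apart from that gap, while both pair medians were below 0.

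MRPS22, a small subunit protein specific to mitochondria, had 28.1 and 26.0 CPM in HIF1A-/- normoxia and 23.1 and 21.6 in hypoxia. These groups did not overlap (log2 fold change -0.27 ± 0.15, adjusted p = 1 by edgeR), while in WT cells its value was 0.02. MRPL44, a large subunit protein at the tunnel exit with an RNase III-like fold, had 28.9 and 24.6 CPM in HIF1A-/- normoxia and 22.6 and 21.7 in hypoxia, a log2 fold change of -0.27 ± 0.15 without overlap. MRPS14, a small subunit protein, lay the other way, with 13.9 and 14.5 CPM in normoxia and 15.7 and 14.9 in hypoxia, a log2 fold change of 0.11 ± 0.18. MRPL42 had 76.4 and 62.9 CPM in normoxia and 78.3 and 65.2 in hypoxia, with overlap.

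The interaction, the WT response minus that of HIF1A-/- cells, asked whether loss of HIF1A altered the response of MRP genes. EdgeR called 0 of 71 in the gene body with 0 at an unadjusted p under 0.05, and DESeq2 called 0, against 0.0539% of all genes called higher and 0% lower. The median was -0.08, with 51 of 71 genes lower in WT, and it was -0.02 and -0.12 in the replicate pairs. It turned to 0.10 on leaving out either replicate 2 of HIF1A-/- normoxia or replicate 1 of HIF1A-/- hypoxia. Left without replicate 1 of HIF1A-/- normoxia it was -0.35, without replicate 2 of HIF1A-/- hypoxia -0.26, without WT normoxia replicate 2 -0.20 and without WT hypoxia replicate 1 -0.17. Omitting replicate 1 of WT normoxia gave -0.0089 and omitting replicate 2 of WT hypoxia gave -0.010. The block led to 0 calls, against 0.384% of all genes called higher. The smallest p belonged to MRPL17, at 0.55 ± 0.33, and MRPS14, at -0.41 ± 0.25, both with an adjusted p of 1.00. A difference between the genotypes in the response of MRP gene bodies was therefore not detectable with these libraries.

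**Figure D4:**
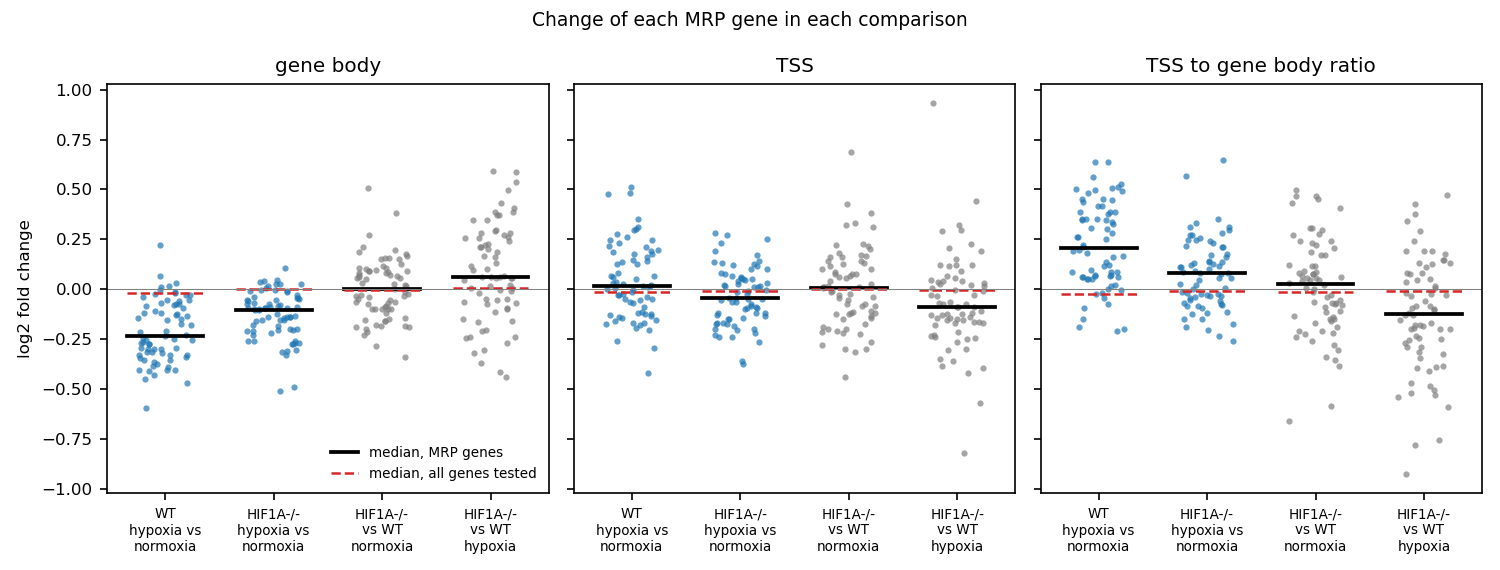
Log2 fold change of each MRP gene (points, spread sideways at random) in the gene body, at the TSS and in the TSS to gene body ratio, for 4 comparisons, with the median of the MRP genes (black) and of all genes tested (red dashes). Gene body points in WT hypoxia centre on -0.24, those of the TSS to gene body ratio on 0.21, and TSS points on 0.02.

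At the TSS in WT cells, the log2 fold change with hypoxia had a median of 0.02 over 70 MRP genes, with 38 higher and 32 lower, against -0.02 over all genes, and it was -0.01 with library totals in place of TMM scaling. It was 0.06 without replicate 1 of WT normoxia, 0.03 without either replicate of WT hypoxia and 0.0097 without replicate 2 of WT normoxia. EdgeR called 0, with 2 higher at an unadjusted p under 0.05, and DESeq2 called 0, against 0.046% of all genes called higher and 0% lower. Both hypoxic libraries lay above both normoxic ones for 20 of 70 genes and below them for 6, against 17.2 and 17.5% of all genes. Both pairs were higher for 27 genes and lower for 17, against 28.9 and 30.4% of all genes. MRPL2 is a large subunit protein near the peptidyl transferase centre. Its TSS had 136 and 138 CPM in normoxia and 185 and 197 in hypoxia, and in HIF1A-/- cells 153 and 147 in normoxia and 147 and 150 in hypoxia. The WT hypoxic libraries stood above all other 6, with a log2 fold change of 0.48 ± 0.14 and, by edgeR, an adjusted p of 0.922. With the replicate number as a block the adjusted p was 0.0854, and MRPL2 was then the only MRP gene called at the TSS in this comparison, where 0.789% of all genes were called higher. MRPL32 had 193 and 267 CPM in normoxia and 268 and 374 in hypoxia, a log2 fold change of 0.48 ± 0.19 (adjusted p = 0.922).

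In HIF1A-/- cells the TSS median was -0.04, with 30 genes higher and 40 lower, and 0 were called by edgeR or DESeq2, with 0 at an unadjusted p under 0.05, against 0% of all genes called in either direction. It was -0.11 without replicate 1 and 0.01 without replicate 2 of HIF1A-/- hypoxia, and -0.0059 without replicate 1 of HIF1A-/- normoxia. The interaction at the TSS had a median of 0.04 and 0 calls by edgeR and by DESeq2, against 0.00657% of all genes called higher and 0% lower, and its median was 0.13 without replicate 1 and -0.02 without replicate 2 of HIF1A-/- hypoxia, and 0.09 without replicate 1 of WT normoxia. It was 0.0064 without replicate 1 and 0.07 without replicate 2 of WT hypoxia, and 0.07 without replicate 2 of HIF1A-/- normoxia. MRPL2 (0.49 ± 0.19) and MRPL22 (0.55 ± 0.25), both of the large subunit, were the 2 genes with an unadjusted p under 0.05 there, and their adjusted p was 1.00.

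The TSS to gene body ratio, fitted from both tables with a term for each library, was higher in WT hypoxia for 60 of 70 MRP genes. In every comparison it draws on the same reads as the TSS and gene body fits and is not independent of them. Its median log2 change was 0.21, against -0.03 over all 14494 genes tested. Cytosolic ribosomal protein genes had a median of 0.19 with 62 of 69 higher, and nuclear genes for oxidative phosphorylation one of 0.22 with 57 of 71 higher. EdgeR called 0 MRP genes, with 3 higher at an unadjusted p under 0.05, and DESeq2 called 0, against 0.0069% of all genes called higher and 0.186% lower. The groups did not overlap for 33 genes that were higher and 1 that was lower, against 18.4 and 17.3% of all genes. The number of lower genes stayed between 10 and 15 on leaving out any of the 8 libraries. Per library, the median ratio of MRP genes was 12.4 and 13.0 in WT normoxia and 15.96 and 17.8 in hypoxia, where that of all genes was 10.5 and 9.76 in normoxia and 11.5 in both hypoxic libraries.

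The genes with the smallest p in this measure were MRPS21, MRPL49 and MRPL52. MRPS21, a small subunit protein of bacterial origin, had ratios of 10.2 and 11.8 in WT normoxia and 15.98 and 22.1 in hypoxia. These groups did not overlap (log2 change 0.56 ± 0.23, adjusted p = 0.858 by edgeR). MRPL49, whose start lies 43 bp from that of the ribosomal protein gene FAU, had 6.72 and 8.25 in normoxia and 10.8 and 16.7 in hypoxia, without overlap. MRPL52 had 7.83 and 9.84 in normoxia and 12.6 and 16.5 in hypoxia, likewise.

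In HIF1A-/- cells the median log2 change of the ratio was 0.08, with 43 of 70 genes higher, against -0.01 over all genes. EdgeR and DESeq2 called 0 (1 higher at an unadjusted p under 0.05 by edgeR), against 0% of all genes in either direction, and the number of lower genes, 27, became 51 without replicate 1 and 13 without replicate 2 of HIF1A-/- normoxia, and 41 without replicate 2 of HIF1A-/- hypoxia. The per-library medians, 7.35 and 14.3 before and 9.74 and 14.7 in hypoxia, differed more between replicates than between oxygen levels. The replicate 1 libraries with the low ratios are those with the low TSS totals, and their part in the result was not tested. The interaction in the ratio had a median of 0.14 with 0 calls by either tool and 0 at an unadjusted p under 0.05 by edgeR, against 0% of all genes called higher and 0.0207% lower. Its median was 0.05 and 0.26 in the replicate pairs. The number of lower genes, 23 of 70, became 37 without replicate 2 and 11 without replicate 1 of HIF1A-/- normoxia.

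HIF1A-/- cells were next compared with WT cells in normoxia, which asks whether basal transcription of MRP genes differs between the lines. In the gene body 36 of 71 genes were higher and 35 lower in HIF1A-/- cells, with a median of 0.0030. That median was 0.22 without replicate 2 of HIF1A-/- normoxia, and it turned to -0.25 without replicate 1 and to -0.10 without replicate 2 of WT normoxia, being 0.13 without replicate 1 of WT normoxia. EdgeR and DESeq2 called 0, with 0 at an unadjusted p under 0.05 by edgeR, against 0.725% of all genes called higher and 1.05% lower. The block led to 0 calls as well, against 3.93% of all genes higher and 6.39% lower. MRPL44 had the smallest p, with 33.9 and 31.3 CPM in WT and 28.9 and 24.6 in HIF1A-/- cells, which did not overlap (log2 fold change -0.29 ± 0.15, adjusted p = 0.697). MRPL28 was higher in HIF1A-/- cells, at 6.27 and 4.97 CPM against 4.26 and 3.64 in WT (0.51 ± 0.34, adjusted p = 0.832).

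At the TSS in normoxia the median was 0.0074 over 70 genes, turning to -0.03 without replicate 1 of HIF1A-/- normoxia, to -0.01 without replicate 2 of WT normoxia and to -0.0035 and -0.0041 without replicate 2 of WT and of HIF1A-/- hypoxia, and 0 were called by edgeR (1 lower at an unadjusted p under 0.05) or DESeq2, against 0.224% of all genes called higher and 0.434% lower. MRPS7, a small subunit protein that binds early in assembly, had 128 and 116 CPM in WT and 96.6 and 84.1 in HIF1A-/- cells, without overlap (-0.44 ± 0.17, adjusted p = 0.519). MRPL18 had 163 and 148 CPM in WT against 258 and 161 in HIF1A-/- cells. Its TSS was called higher (0.74, adjusted p = 0.0627, edgeR) only when replicate 2 of HIF1A-/- normoxia was left out, which left the high library alone. In the ratio 0 genes were called by either tool, with 2 higher and 2 lower at an unadjusted p under 0.05 by edgeR, against 0.0069% of all genes called in each direction. There 32 of 70 genes were lower, which became 50 without replicate 2 and 11 without replicate 1 of HIF1A-/- normoxia, and 48 without replicate 1 of WT normoxia.

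In hypoxia, HIF1A-/- against WT cells gave the widest spread among MRP genes. In the gene body 45 of 71 were higher in HIF1A-/- cells with a median of 0.06. It was 0.26 without replicate 2 and -0.11 without replicate 1 of HIF1A-/- hypoxia, 0.23 without replicate 1 and -0.04 without replicate 2 of WT hypoxia. EdgeR called 0 MRP genes, with 2 lower at an unadjusted p under 0.05, and DESeq2 called 0, against 1.47% of all genes called higher and 2.79% lower. The groups did not overlap for 7 genes higher and 13 lower, against 20.9 and 24.6% of all genes. With the replicate number as a block, edgeR called 8 MRP genes higher and 3 lower, where 13.1% of all genes were called higher and 15.1% lower. The share of MRP genes called under the block was thus below that of all genes in the lower direction and near it in the higher one. DESeq2 with the same block, an alternative added after the data were seen, called 5 higher and 1 lower.

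MRPL44 had the smallest p, with 31.0 and 29.0 CPM in WT hypoxia and 22.6 and 21.7 in HIF1A-/- hypoxia. The lines did not overlap, and the log2 fold change was -0.44 ± 0.15 (edgeR, adjusted p = 0.217, and 0.0264 with the block). MRPS31, a small subunit protein specific to mitochondria, had 43.9 and 41.5 CPM in WT and 34.7 and 33.8 in HIF1A-/- cells, also without overlap (-0.32 ± 0.13, adjusted p = 0.289 and 0.0473 with the block). Both genes were already lower in HIF1A-/- cells in normoxia, MRPS31 at 38.4 and 37.0 CPM against 43.9 and 41.8. MRPL13, of the large subunit, was the remaining gene called lower with the block, at 97.8 and 95.6 CPM in WT and 86.2 and 77.8 in HIF1A-/- cells (adjusted p = 0.408 without the block and 0.0792 with it). In normoxia it was already lower, at 106 and 98.8 CPM in WT and 92.7 and 83.6 in HIF1A-/- cells, without overlap.

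In the other direction, MRPL52 had 16.5 and 11.9 CPM in WT hypoxia and 23.7 and 18.8 in HIF1A-/- hypoxia. Its HIF1A-/- libraries lay above the WT ones (log2 fold change 0.59 ± 0.27, adjusted p = 0.355, 0.0156 with the block). MRPL58 had 27.5 and 21.9 CPM in WT and 39.7 and 30.1 in HIF1A-/- cells, again without overlap (0.50 ± 0.22, adjusted p = 0.330, 0.0157 with the block). MRPL43, whose start lies 20 bp from that of TWNK, the gene of the mitochondrial DNA helicase, had 28.7 and 24.2 CPM in WT and 37.2 and 29.99 in HIF1A-/- cells (0.35 ± 0.18, adjusted p = 0.415, 0.0563 with the block). MRPL28, MRPL37, MRPL38, MRPL49 and MRPS7 were the other genes called higher with the block. From 250 bases before to 50 after the start, the ETS letters were found in MRPS31, MRPL52 and MRPL58 and not in MRPL44, and the YY1 letters in MRPL52 alone of these 4 genes.

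**Figure D5:**
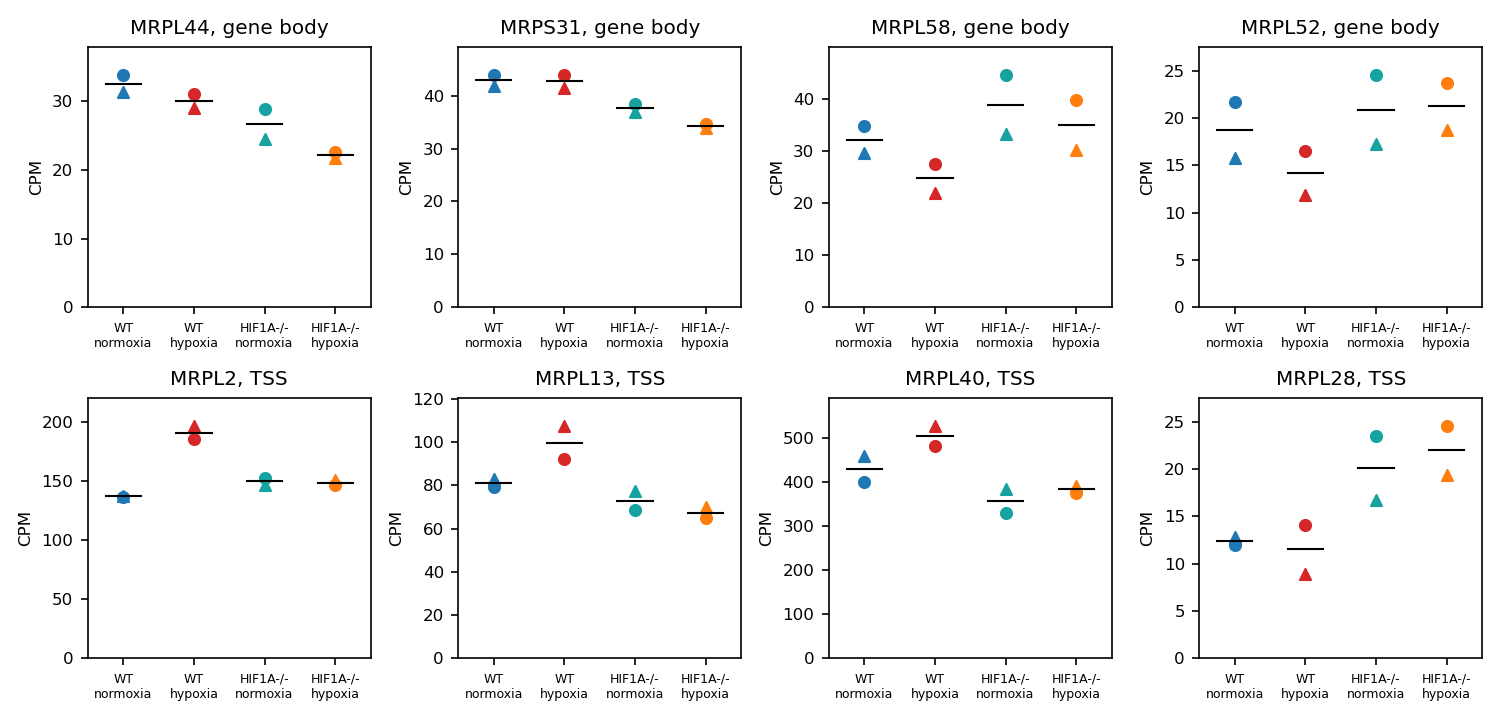
CPM of 8 MRP genes in each library by group (circle, replicate 1; triangle, replicate 2; line, mean of the group), in the gene body (top row) and at the TSS (bottom row), with axes from 0. MRPL44 and MRPS31 are lowest and MRPL58 and MRPL52 higher in HIF1A-/- than in WT hypoxia, and the WT hypoxic libraries of MRPL2, MRPL13 and MRPL40 lie above all others.

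In the gene body comparison of the lines in hypoxia, the difference varied with both length and level. This comparison shares the WT hypoxia libraries with the WT response, where they enter with the opposite sign. The descriptions of these comparisons are therefore not independent. The median was 0.21 over 41 genes under 10 kb and -0.05 over 30 longer ones, against 0.12 and -0.03 over all short and long genes tested. Spearman's rho with length was -0.55 over MRP genes and -0.21 over all genes. With the gene body level it was 0.61 over MRP genes and 0.28 over all genes. MRP genes with the ETS letters had a median of 0.12, 20 of 27 being higher, and those without had 0.06, 25 of 43 being higher. For the YY1 letters the order was reversed, with a median of 0.02 (7 of 13 higher) with them and 0.09 (38 of 57 higher) without. MRP genes with the core of the hypoxia response element had 0.06, as those without had 0.07. In WT cells the median change with hypoxia was -0.25 in the gene bodies of genes with the core and -0.24 in those without it.

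At the TSS in hypoxia, 45 of 70 MRP genes were lower in HIF1A-/- than in WT cells, with a median of -0.09 against -0.0061 over all genes, and this median was -0.15 without replicate 1 and -0.03 without replicate 2 of HIF1A-/- hypoxia and -0.04 without replicate 1 of WT hypoxia. EdgeR called 0, with 1 higher and 8 lower at an unadjusted p under 0.05, and DESeq2 called 0, against 0.440% of all genes called higher and 0.664% lower. The groups did not overlap for 24 genes lower and 7 higher, against 24.2% of all genes in each direction. With the block edgeR called 2 higher and 7 lower, against 7.47 and 6.97% of all genes, and DESeq2 with the block called 1 and 2.

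MRPL13 had the smallest p at the TSS, with 92.1 and 107 CPM in WT hypoxia and 64.7 and 69.7 in HIF1A-/- hypoxia. The lines were well apart, at a log2 fold change of -0.57 ± 0.17 (edgeR, adjusted p = 0.195, 0.0194 with the block). MRPL40, a large subunit protein specific to mitochondria, had 483 and 529 CPM in WT and 376 and 393 in HIF1A-/- cells (-0.40 ± 0.14, adjusted p = 0.269, 0.0389 with the block). MRPL28 was the opposite case, at 14.1 and 8.91 CPM in WT and 24.5 and 19.4 in HIF1A-/- cells (0.93 ± 0.34, adjusted p = 0.269, 0.0324 with the block), from 67 and 52 reads against 74 and 83. MRPL12 was the second gene called higher with the block, while MRPL2, MRPL21, MRPL22, MRPL57 and MRPS21 were the remaining genes called lower.

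The TSS to gene body ratio in hypoxia was lower in HIF1A-/- cells for 46 of 70 MRP genes, with a median log2 difference of -0.12 against -0.0096 over all genes. EdgeR called 0, with 1 higher and 6 lower at an unadjusted p under 0.05, and DESeq2 called 0, against 0.435% of all genes called higher and 0.235% lower. MRPL58 had ratios of 37.7 and 48.5 in WT hypoxia and 13.5 and 22.6 in HIF1A-/- hypoxia, a log2 difference of -0.78 ± 0.21 (adjusted p = 0.191, 0.0148 with the block). MRPL57 had 0.451 and 0.622 in WT and 0.196 and 0.199 in HIF1A-/- cells, at -0.93 ± 0.27 (adjusted p = 0.225, 0.0522 with the block). Both were lower in both HIF1A-/- libraries. With the block 6 genes were called lower and 0 higher, against 2.81 and 3.81% of all genes, MRPL49, MRPL52, MRPL55 and MRPS21 being the others.

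The divergent neighbours of MRP genes were read on their own strand. Over 23 neighbours outside the MRP family, the gene body change in WT hypoxia had a median of -0.19 with 18 lower, beside -0.25 over the 25 MRP genes of these pairs and -0.21 over the 46 MRP genes without such a neighbour. MRPS12 and SARS2 had log2 fold changes of -0.47 and -0.30, MRPL47 and NDUFB5 of -0.13 and -0.20, and MRPL46 and MRPS11 of -0.06 and -0.32. MRPS18B and PPP1R10, the latter for a subunit of a nuclear phosphatase complex, had -0.28 and 0.24. None of these partners was called, their adjusted p running from 0.897 upward.

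The mitochondrial ribosome also needs proteins without an MRP symbol. A list of 59 genes for such subunits, translation factors, assembly factors and mitochondrial transcription was examined, of which 58 were found and tested. In WT hypoxia 46 of 58 gene bodies were lower with a median of -0.14 and 0 were called, against 0.431% of all genes called higher and 0% lower. For comparison, 66 of 69 cytosolic ribosomal protein genes were lower with a median of -0.20, and 66 of 74 nuclear genes for oxidative phosphorylation were lower with a median of -0.17, each with 0 called. Of the list, TFB1M, the methyltransferase that modifies the RNA of the small mitochondrial subunit, was the single gene called without the block. It had 77.4 and 84.2 CPM in WT normoxia and 107 and 135 in WT hypoxia, against 74.8 and 71.1 in HIF1A-/- normoxia and 70.98 and 67.4 in hypoxia. The WT hypoxic libraries stood above all others. TFB1M was lower in HIF1A-/- than in WT cells in hypoxia, at a log2 fold change of -0.81 ± 0.15 (adjusted p = 0.0318 by edgeR). In that comparison 1.47% of all genes were called higher and 2.79% lower. The higher value of TFB1M in WT hypoxia, 0.59 ± 0.15, was called by DESeq2 (adjusted p = 0.0682). It was also called with the block (adjusted p = 0.0473), where 3.73% of all genes were called higher, but had an adjusted p of 0.436 without it.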

How the data were processed

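PRO-seq libraries of 8 HCT116 samples were analysed. The authors deposited raw read counts per gene, made with featureCounts (Subread 1.6.2) after alignment to GRCh37 with HISAT2 2.1.0, for a TSS region of 551 bp (from 50 bp before the start) and for the gene body from base 1001. RPKM divide by the whole region, overlapped bases included. Per the labels samples were grouped by genotype and oxygen. Counts were fitted over all genes in edgeR 4.0.16 (R 4.3.3; TMM, CPM above 0.5 in at least 2 libraries, glmQLFTest, 4 group means), and called at an FDR of 10%. The ratio used 16 columns with a term per library. CPM and RPKM values are TMM-scaled. Alternatives were DESeq2 1.42.0, library totals, no filter, a replicate block and leaving out each library. Shares of all genes called are those of edgeR. Counts by DESeq2 and counts at an unadjusted p are given without such a share. They were not set against all genes here, so they do not show whether MRP genes differ from them. Fits were tested on simulated counts that had no replicate effect and changes larger than the medians seen here. That test does not cover small changes or replicate shifts. Deviations of equally numbered libraries correlated (r = 0.50 to 0.85 in gene bodies, 0.22 to 0.52 at the TSS, in all 6 pairs of groups). The labels state no pairing, so pairing by replicate number was inferred from these correlations. The main fit did not use it. The genes and lists were chosen with earlier results of these data known. Genes were named from those of smallest p in each direction, of highest and lowest level, or of fixed role, with genes called under the block added after their values were seen.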

Additional observations from a re-analysis of the deposited data

How the results depend on the processing

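The counts of MRP genes called kept to 0 with DESeq2 and with library totals in all 15 combinations of measure and comparison. With the replicate number as a block, a pairing inferred from the data, the called genes came to 1 for gene bodies and 1 for the TSS in WT hypoxia. For HIF1A-/- against WT cells in hypoxia they came to 11 for gene bodies, 9 for the TSS and 6 for the ratio. DESeq2 with the block, added after the data were seen, gave 6, 3 and 1 there. Without the filter on low counts the ratio gave 2 there. The block changed no other count. Leaving out each library gave 0 calls throughout except at the TSS in normoxia between the lines, with 0 to 1. The median over gene bodies ran from -0.33 to -0.11 in WT hypoxia, from -0.32 to 0.12 in HIF1A-/- hypoxia, from -0.35 to 0.10 for the interaction, from -0.25 to 0.22 between the lines in normoxia and from -0.11 to 0.26 in hypoxia. At the TSS it ran from 0.0097 to 0.060, from -0.11 to 0.015, from -0.024 to 0.13, from -0.033 to 0.017 and from -0.15 to -0.028. Library totals gave a median of -0.21 for WT gene bodies, with 60 lower, and turned those near 0 to -0.0024 (gene bodies) and -0.0082 (TSS) between the lines in normoxia and -0.011 (TSS) in WT hypoxia. The first of these was -0.019 with the block and -0.0017 with DESeq2 and the block. Of single genes, 4 changed sign on leaving out a library. MRPS28 ran from -0.027 to 0.16 in WT and from -0.0012 to 0.11 in HIF1A-/- hypoxia, MRPS30 from -0.12 to 0.20 in WT, MRPL42 from -0.074 to 0.18 in HIF1A-/- hypoxia and MRPL18 at the TSS from -0.68 to 0.0051 there. With 2 libraries a group, the fit without the block had a median standard error of 0.24 on the log2 scale for gene bodies in WT hypoxia. This limited what that fit could show.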
